A study of Mus musculus with 4 samples.

Results

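The genes described here encode the interferon regulatory factors Irf1, Irf2, Irf3, Irf4, Irf5, Irf8 and Irf9, together with Irf2bp2, which encodes a cofactor first described as a binding partner of Irf2. They were picked by gene symbol, and are 8 of the 29247 genes in the count table. All 8 passed the filter on low counts, which left 18715 genes to be tested. RNA came from liver macrophages that were sorted by flow cytometry from C57BL6J mice, 8 weeks of age. The APAP group has 3 libraries of Cxcr4+ macrophages, collected 72 h after intraperitoneal acetaminophen (APAP) at 300 mg/kg in saline, and the comparison group is 1 library of control macrophages, for which no gate and no Cxcr4 sort are described. Acetaminophen at high doses kills hepatocytes, and the Cxcr4+ macrophages were collected in the days after such a dose. No dose and no time are labelled for the control. Treatment and Cxcr4 sort coincide in this design and cannot be told apart. Whether each APAP sample is a different mouse is not labelled, and the p-values reflect only the scatter of these libraries, which may be technical. APAP samples are numbered 1 to 3 by their place in the count table, which gives them no number of its own.

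Interferon regulatory factors are transcription factors that share an N-terminal DNA-binding domain and recognise GAAA repeats, the core of the interferon-stimulated response element (ISRE). Irf3 and Irf5 lie dormant until sensors of nucleic acids or microbial products activate them by phosphorylation. Irf9 is part of the complex ISGF3, which carries the type I interferon signal. Irf1 is itself induced by interferon gamma and Irf2 competes with it for the same sites, while Irf4 and Irf8 are expressed mainly in blood-forming lineages and bind DNA with partners such as PU.1. In macrophages the family is known for setting antiviral, antigen presentation and cytokine genes.

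Promoters were searched for motifs of interferon and NF-kB signalling, and those of Irf1, Irf2 and Irf8 are printed because they hold the matches to interferon-responsive motifs. RefSeq windows of 250 bases before and 50 bases after each start site (GRCm38.p6) were found for all 8 genes, 11 windows in all. Each window was searched on both strands for the ISRE core (GAAA, any 2 bases, GAAA), the STAT site GAS (TTCNNNGAA), the ETS-IRF composite element (GGAA, any 2 bases, GAAA), the NF-kB motif (GGGA, any 4 bases, CC) and the AP-1 motif TGANTCA. The first 4 bases of an ISRE match can be the last 4 of an ETS-IRF match. The bases before the start site follow, 5′ to 3′ on the plus strand, with matches in capitals, for Irf1 at chr11:53769764-53770013, Irf2 at chr8:46739495-46739744 and Irf8 at chr8:120736108-120736357.
Irf1: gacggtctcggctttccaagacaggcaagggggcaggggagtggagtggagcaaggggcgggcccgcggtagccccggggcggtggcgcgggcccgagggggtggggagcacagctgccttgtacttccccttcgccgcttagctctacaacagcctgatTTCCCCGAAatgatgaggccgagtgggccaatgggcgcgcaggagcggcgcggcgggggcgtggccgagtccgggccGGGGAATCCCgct
Irf2: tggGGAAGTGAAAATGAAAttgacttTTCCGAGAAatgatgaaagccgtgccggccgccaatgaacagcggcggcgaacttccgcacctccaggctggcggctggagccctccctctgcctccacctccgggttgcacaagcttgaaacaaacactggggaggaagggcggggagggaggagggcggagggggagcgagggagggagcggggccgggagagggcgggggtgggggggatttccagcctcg
Irf8: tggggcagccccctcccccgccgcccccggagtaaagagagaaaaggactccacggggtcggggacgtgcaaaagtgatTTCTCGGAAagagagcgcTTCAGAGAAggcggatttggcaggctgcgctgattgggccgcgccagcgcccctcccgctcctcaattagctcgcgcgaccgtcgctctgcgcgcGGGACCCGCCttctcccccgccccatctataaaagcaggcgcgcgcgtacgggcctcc
The Irf1 window holds the GAS match TTCCCCGAA, which begins at position -90 from the start site, and the NF-kB match GGGGAATCCC, on the minus strand. The Irf2 window holds an ETS-IRF match, GGAAGTGAAA, that overlaps an ISRE match, GAAAATGAAA, and the GAS match TTCCGAGAA. The Irf8 window holds a pair of GAS matches, TTCTCGGAA and TTCAGAGAA, and the NF-kB match GGGACCCGCC, with a further NF-kB match after the start site that is not printed. Among all 32851 windows of the same length, 8.3% held a GAS match, 3.44% an ISRE core, 2.72% an ETS-IRF element, 20.7% an NF-kB match and 7.81% an AP-1 match. The Irf4 window held an NF-kB match, and those of Irf3, Irf5, Irf9 and Irf2bp2 held none of the 5 motifs. A match describes letters in the sequence and not binding.

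Total counts were 48282283 to 56702837 in the APAP samples and 49950909 in the control. Levels are read counts scaled to library size (CPM, with edgeR TMM factors), and differences are log2 fold changes of APAP over control. Cxcr4, the gene named by the sort, was at 84.5, 132 and 101 CPM in the APAP samples and 41.3 CPM in the control. The 7 general macrophage and leukocyte genes, Adgre1, Csf1r, Cd68, Mertk, Lyz2, Fcgr1 and Ptprc, summed to 16342 to 18943 CPM in the APAP samples and 18860 CPM in the control. The summed level of 9 Kupffer cell markers was 12585 to 15510 CPM against 31006 CPM in the control, and that of 7 monocyte markers 605 to 775 CPM against 30.8 CPM. Summed levels were 300.5 to 542 against 1043 CPM for 12 hepatocyte markers, 951 to 1367 against 1956 CPM for 8 markers of sinusoidal endothelium, 122.5 to 163 against 72.8 CPM for 10 T cell markers and 28.4 to 42.4 against 9.37 CPM for 7 NK cell markers. Among all genes, 44.3% were called by edgeR's quasi-likelihood test at a Benjamini-Hochberg adjusted p of 0.05, 25.4% higher and 18.9% lower. By this test 3 of the 8 endothelial markers were lower, 2 higher (Kdr and Ptprb) and 3 not called, with a median of -0.24. Much of the endothelial sum was Cdh5, at 474, 692 and 748 CPM against 1268 CPM in the control. Of the 9 Kupffer cell markers 8 were lower and Marco, at 0.62, was not called. All of the spread is estimated among the APAP samples, and the single control is taken to scatter to the same extent.

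Of the 8 genes, 2 fell, Irf1 and Irf3, 0 rose and 6 did not pass the test, against the 18.9% and 25.4% of all genes. At an unadjusted p of 0.05, 4 of the 8 passed, beside 54% of all genes. The median size of the log2 fold change, regardless of sign, was 0.34 for these genes and 0.66 for all genes tested, and the signed medians were -0.01 and 0.08. The 8 genes had average log2 CPM of 4.1 to 8.6, and all genes tested include those with few reads. The medians are not matched for level. The control lay above all 3 APAP samples for Irf1, Irf2 and Irf3 (39.2% of all genes), below all of them for Irf4, Irf8 and Irf2bp2 (45.7% of all genes), and within their range for Irf5 and Irf9. These 6 of 8 outside the range compare with 84.8% of all genes. In bulk samples, fewer cells that express a gene and less RNA per cell cannot be told apart.

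**Figure D1:**
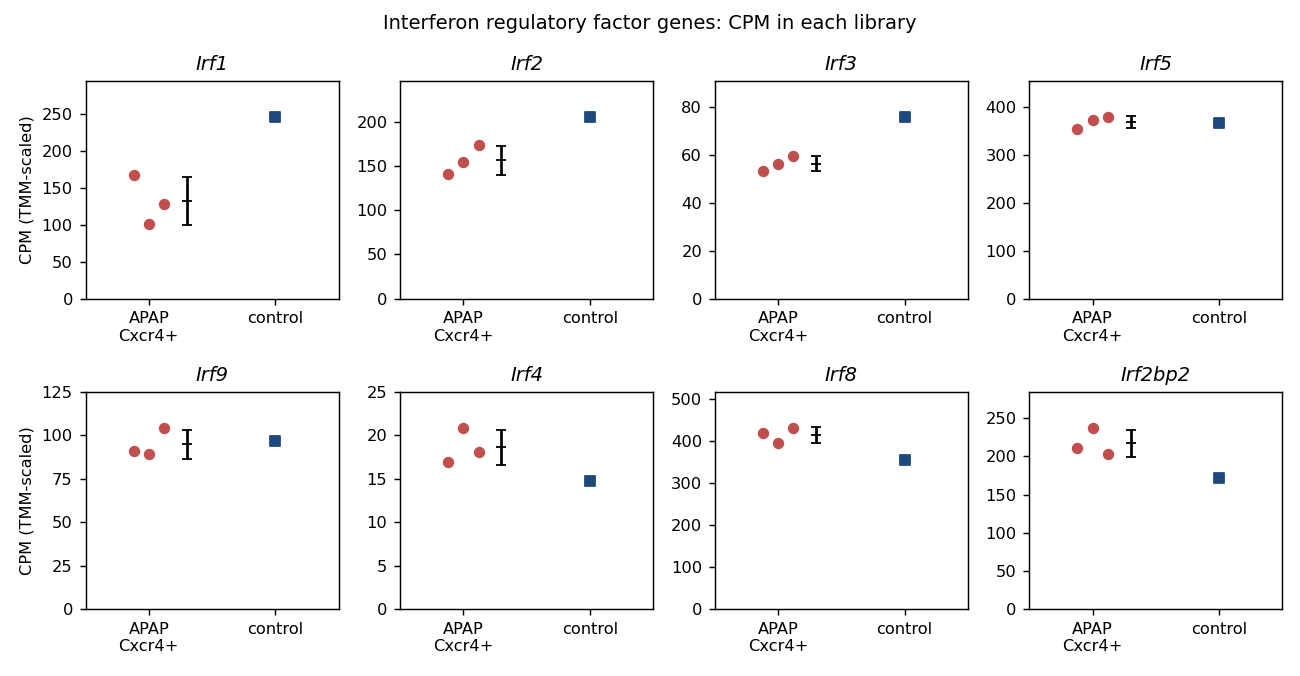
Levels of the 8 genes in each library, in TMM-scaled CPM on a linear axis from 0 (red circles: APAP samples 1, 2 and 3 from left to right; blue square: the control; black bar: mean and SD of the APAP samples, n = 3). Irf1 has the widest gap, 101 to 167 CPM against 245 CPM, and the Irf5 control of 366 CPM lies between its APAP samples.

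Irf1, the interferon gamma-inducible activator, was lower in every APAP sample. It stood at 167, 101 and 128 CPM in APAP samples 1, 2 and 3 and at 245 CPM in the control. The groups did not overlap, but APAP sample 1 lay closer to the control than samples 2 and 3 did. The log2 fold change was -0.89 (SE 0.25, edgeR adjusted p = 0.0312), a level 53.8% of the control. Irf1 was also the most variable of the 8 genes: its SD among APAP samples on the log2 scale was 0.36, and those of the others were 0.05 to 0.15, beside a median of 0.17 over all genes tested. The fall was no longer called without APAP sample 2 (log2 fold change -0.74, adjusted p = 0.0523) or after a correction for transcript length and GC content (-0.76, adjusted p = 0.0543). Over the alternatives other than a test against a 2-fold change, the adjusted p ranged from 0.000631 to 0.0543. Irf1 shares 3.4% of its exon bases with Gm17334 on the opposite strand, which had 187 to 219 counts in the APAP samples and 87 in the control.

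Irf2, the antagonist that binds the same sites as Irf1, was at 141, 155 and 173 CPM in the APAP samples, and at 205 CPM in the control. All APAP samples lay below the control, and the log2 fold change of -0.39 (SE 0.13, 95% interval -0.71 to -0.07) missed the threshold at an adjusted p of 0.0537. It passed in 5 of 13 fits, with the adjusted p ranging from 0.0197 to 0.156 without the test against a 2-fold change. The ratio of Irf1 to Irf2 reads within a library, which does not depend on scaling between libraries, was 1.18, 0.654 and 0.736 in APAP samples 1, 2 and 3 and 1.195 in the control. The ratio in APAP sample 1 was near that of the control, and those in samples 2 and 3 were lower. APAP sample 1 also had the lowest summed Kupffer cell level, 12585 CPM, and the highest neutrophil level, 344 CPM against 269 and 190 CPM in the others. Most of the neutrophil sum was Csf3r, at 231, 199 and 153 CPM in APAP samples 1, 2 and 3. Ifng was also highest in APAP sample 1, at 1.23 CPM against 0.484 and 0.307 CPM, from 62, 26 and 18 counts. The part of any of these in the ratio was not tested.

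Genes commonly cited as Irf1 targets include those of antigen presentation. Of 19 tested, 12 fell and 3 rose, beside 18.9% and 25.4% of all genes. Their median log2 fold change was -0.62, where the median of all genes was 0.08. The immunoproteasome subunits Psmb10 and Psmb8 had log2 fold changes of -1.22 (SE 0.10) and -1.14 (SE 0.13), and the MHC class I genes H2-K1 and B2m of -1.15 (SE 0.10) and -0.93 (SE 0.11). B2m, the light chain of every class I molecule, stood at 1706, 1643 and 1673 CPM against 3187 CPM in the control. Its 3 APAP values lie close together and all below the control. The 4 targets not called, Tap1, Gbp2, Gbp5 and Irgm1, were more uneven and each highest in APAP sample 1. Gbp2 was at 133, 78.8 and 80.7 CPM against 108.5 CPM in the control, and Irgm1 at 101, 65.8 and 76.4 CPM against 98.6 CPM. The 3 that rose, named after their values were seen, were Nlrc5 (0.80), the transactivator of MHC class I, Ciita (1.13), that of class II, and Il12a. Nlrc5 was not called without APAP sample 2 (adjusted p = 0.0558) or with the length and GC correction (0.0683), its range being 0.000964 to 0.0683 without the test against a 2-fold change. Il12a, a cytokine subunit gene with 0 counts in the control and 0.476 ± 0.266 CPM (SD, n = 3) in the APAP samples, was at least 7.13-fold higher against a floor of 3 counts in the control library. That floor covers counting error only, and with Il12a at this bound the list's median was the same.

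Irf3, the factor that TBK1 phosphorylates after nucleic acid sensing, was at 53.4, 56.3 and 59.8 CPM in the APAP samples, and at 75.8 CPM in the control. The APAP samples lay close together and all below the control. The log2 fold change was -0.42 (SE 0.10, edgeR adjusted p = 0.0185), a level 74.5% of the control. The call was lost without APAP sample 2 (-0.42, adjusted p = 0.080), and the difference shrank to -0.20 (adjusted p = 0.153) after the length and GC correction. Over the alternatives other than the test against a 2-fold change, the adjusted p ranged from 0.00737 to 0.153. Exons of Irf3 and of Bcl2l12 on the opposite strand share 88 bases, 2.56% of the Irf3 exon length, and Bcl2l12 had 334 to 368 counts in the APAP samples and 507 in the control, so reads of this stretch cannot be assigned without strand.

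Irf5, which drives inflammatory cytokine genes downstream of Toll-like receptors, was at 353, 373 and 378 CPM in the APAP samples, and at 366 CPM in the control. The control lay inside the APAP range, and the log2 fold change was 0.01 (SE 0.10, adjusted p = 0.939). Its 95% interval was -0.23 to 0.25, which reflects the scatter among the APAP samples only. The length and GC correction gave 0.23 (adjusted p = 0.108, range over the alternatives 0.108 to 0.994 without the test against a 2-fold change). Irf5 shares 14.1% of its exon bases with Tnpo3 on the opposite strand, which had 3538 to 4077 counts in the APAP samples and 2079 in the control, against 16427 to 22175 for Irf5.

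Sensors, adaptors and kinases relay signals to Irf3 and Irf5. Of 22 tested, 9 rose and 3 fell, beside 25.4% and 18.9% of all genes. Their median log2 fold change was 0.31, beside 0.08 for all genes. Without APAP sample 2, 5 rose and 1 fell, and calls over all genes were fewer as well. Tlr9, the endosomal sensor of DNA, rose from 14.0 CPM to 62.5, 70.1 and 62.9 CPM (log2 fold change 2.22, SE 0.13, adjusted p = 0.000841). B cells and plasmacytoid dendritic cells are also known for Tlr9, and their summed markers, given below, were higher in the same libraries. The kinase Ikbke rose by 0.88 (SE 0.14) and the ubiquitin ligase Traf6 by 0.80 (SE 0.10), and Mavs, the mitochondrial adaptor of RNA sensing, fell by 0.59 (SE 0.09). Tbk1, named for its role as the kinase of Irf3, rose by 0.33 (SE 0.09, adjusted p = 0.026), and was not called without APAP sample 2 (adjusted p = 0.108) or without sample 3 (0.0504), with a range of 0.0111 to 0.108 without the test against a 2-fold change.

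Of 7 cytokine and chemokine genes commonly cited as Irf5 targets, 2 fell, 1 rose and 4 did not pass (median -0.68). Over all genes, 18.9% fell and 25.4% rose. Il1b, the gene of interleukin 1 beta, was at 79.1, 87.4 and 96.5 CPM against 617 CPM in the control and fell by 2.81 (SE 0.12). Il6 fell by 2.54 (SE 0.37) and the chemokine gene Ccl3 rose by 1.43 (SE 0.19). Tnf was at 3.48, 2.44 and 2.41 CPM against 4.43 CPM in the control, and did not pass (adjusted p = 0.103). It passed without APAP sample 1 (adjusted p = 0.025, range 0.025 to 0.232 without the test against a 2-fold change).

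Irf9, the DNA-binding subunit of ISGF3, was at 91.0, 89.3 and 104 CPM in the APAP samples and 96.9 CPM in the control. The groups overlapped, and the log2 fold change was -0.03 (SE 0.12, 95% interval -0.32 to 0.26, adjusted p = 0.847). Irf9 shares 2.28% of its exon bases with Rnf31 on the same strand, which had 3911 to 4418 counts in the APAP samples and 4058 in the control. Stat2, named for its role as a partner of Irf9 in ISGF3, stood at 197, 181 and 199 CPM against 153 CPM and rose by 0.33 (SE 0.10, adjusted p = 0.0431). It passed in 8 of 13 fits and was not called without APAP sample 2 (adjusted p = 0.0978) or without sample 3 (0.0814), the range being 0.0198 to 0.0978 without the test against a 2-fold change. Of all 15 interferon receptor and JAK-STAT genes, 6 rose and 4 fell (median -0.03), beside 25.4% and 18.9% of all genes. Without APAP sample 2 the numbers were 2 and 2, and calls over all genes were fewer as well. The kinases Tyk2 and Jak2 rose by 0.61 (SE 0.10) and 0.60 (SE 0.10), and Usp18, which restrains the type I receptor, fell by 0.79 (SE 0.13).

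ISGF3 target genes encode antiviral effectors. Of 19 tested, 6 fell, 3 rose and 10 did not pass (median -0.04). Without APAP sample 1 the number that rose was 5, and calls over all genes were more as well. In the main fit 18.9% of all genes fell and 25.4% rose. Oasl1 and Bst2 fell by 1.29 (SE 0.14) and 1.26 (SE 0.11), the ubiquitin-like modifier Isg15 by 1.12 (SE 0.12) and Oas1a, an RNA-activated synthetase, by 1.03 (SE 0.10). The 3 that rose, named after their values were seen, were Mx1 (0.74), Eif2ak2 (0.63) and Ddx60 (0.49). Ddx60 was not called without APAP sample 2 (adjusted p = 0.0636) and was at 0.14 with the length and GC correction (adjusted p = 0.325, range 0.00457 to 0.325 without the test against a 2-fold change). Irf7, the family member that amplifies the type I response, was at 312, 325 and 391 CPM against 1129 CPM in the control (log2 fold change -1.72). Interferon transcripts themselves were scarce: of 4 ligand genes in the table, only Ifng had enough reads to be tested, at 1.23, 0.484 and 0.307 CPM against 0.267 CPM (adjusted p = 0.29), and Ifnb1 was at 0.0445 CPM in the control and had 0 counts in the APAP samples.

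**Figure D2:**
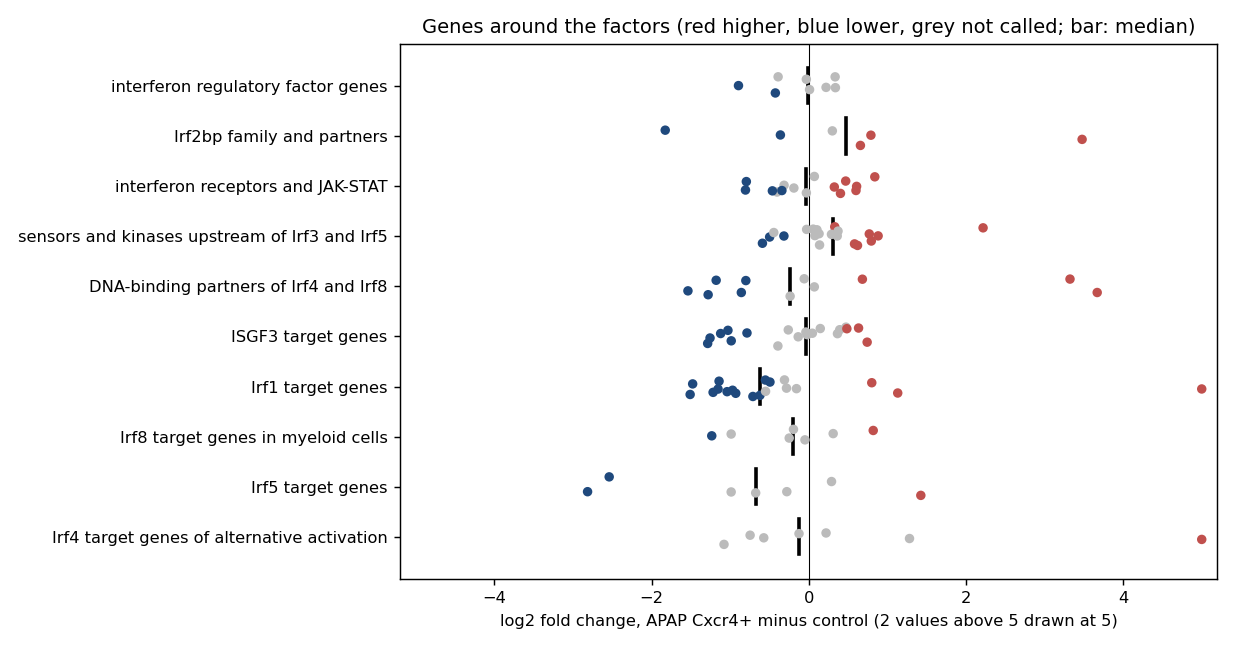
Log2 fold changes of the 8 genes and of the tested genes around them, by list (points: genes; red: called higher, blue: called lower, grey: not called; black bar: median; linear axis). The interferon regulatory factor genes lie between -0.89 and 0.34, and the 2 genes drawn at the right edge, Il12a and Chil3, had 0 counts in the control, so that their position there is not a measured size.

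Irf8, a factor of monocyte and dendritic cell development, had more reads than the other 7 genes in each APAP sample, and fewer than Irf5 in the control. It was at 419, 394 and 431 CPM in the APAP samples, and at 356 CPM in the control. Every APAP sample lay above the control, and the log2 fold change of 0.22 (SE 0.10, 95% interval -0.03 to 0.47) did not pass (adjusted p = 0.127). It passed only after the length and GC correction, at 0.33 (adjusted p = 0.0461, range over the alternatives 0.0461 to 0.251 without the test against a 2-fold change). Irf4, known from plasma cells, activated lymphocytes, type 2 dendritic cells and alternatively activated macrophages, was the member with the fewest reads, at 16.9, 20.9 and 18.1 CPM against 14.8 CPM. Its 850 to 1120 counts in the APAP samples and 663 in the control still gave a control level of 13.7 to 15.9 CPM as an exact Poisson interval of 95%, which covers counting error only. The log2 fold change of 0.34 (SE 0.16, 95% interval -0.06 to 0.73) did not pass (adjusted p = 0.137), and it was 0.20 once corrected for length and GC content (adjusted p = 0.349, range 0.0531 to 0.349 without the test against a 2-fold change). Irf8 reads outnumbered Irf4 reads 24.8, 18.9 and 23.9 times in the APAP samples and 24.1 times in the control.

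Other cells known to express Irf4 or Irf8 were followed by their markers. The 10 B cell markers summed to 241 to 362 CPM in the APAP samples and 115 CPM in the control, with 9 of 10 called higher. The 8 plasmacytoid dendritic cell markers summed to 184 to 213 CPM against 94.2 CPM, with 7 of 8 higher, and their defining gene Siglech was at 0 in the control. The 6 plasma cell markers summed to 72.7 to 84.2 CPM against 19.03 CPM, with 4 of 6 higher. Most of this sum was Prdm1, at 51.8, 54.8 and 51.2 CPM against 12.3 CPM, and Sdc1 (-0.33) and Tnfrsf17 (-0.02) were not called. The 8 markers of type 1 conventional dendritic cells summed to 699 to 788 CPM against 715 CPM, with 5 higher and 1 lower. The 8 of type 2 and mature dendritic cells summed to 1936 to 2020 CPM against 1291 CPM, with 5 higher. Among all genes 25.4% were higher and 18.9% lower. Sums weigh genes with many reads most: in the control Cd22 was at 80.2, Tcf4 at 88.65, Wdfy4 at 263, Cadm1 at 354 and Sirpa at 1249 CPM. Median log2 fold changes were 3.585 for B cells, 3.65 for plasmacytoid dendritic cells and 2.66 for plasma cells. They were 0.75 for type 1 and 1.015 for type 2 and mature dendritic cells. The part of these cells in the levels of Irf4 and Irf8 was not tested.

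Irf4 and Irf8 bind composite sites with partners of other families. Of 11 such partners tested, 5 fell and 3 rose (median -0.24), beside 18.9% and 25.4% of all genes. Spi1, which encodes PU.1, the myeloid partner of Irf8, was at 403, 438 and 427 CPM against 736 CPM and fell by 0.80 (adjusted p = 0.00256). It is named for that role. Jund fell by 1.54 (SE 0.08) and Batf, an AP-1 factor that pairs with Irf4, by 1.18 (SE 0.12). Spib, a relative of PU.1 known from B cells and plasmacytoid dendritic cells, rose by 3.67 (SE 0.24) and the lymphoid factor Ikzf3 by 3.32 (SE 0.27), from 2.05 and 3.54 CPM in the control.

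Among genes reported as Irf8 targets, 1 of 7 rose and 1 fell (median -0.19), beside 25.4% and 18.9% of all genes. Without APAP sample 1 the numbers were 2 and 2, and calls over all genes were more as well. With the length and GC correction 0 rose and 2 fell. Cst3, the gene of cystatin C, fell by 1.23 (SE 0.13). The rise of Nf1, at 0.82 (SE 0.10), turned to -0.09 after the length and GC correction. The NADPH oxidase gene Cybb, at 0.31, did not pass (adjusted p = 0.0746). It passed in 2 of 13 fits, one of them without APAP sample 1 (adjusted p = 0.0172, range 0.0172 to 0.269 without the test against a 2-fold change). Of 7 genes of alternative activation tied to Irf4, 1 rose, beside 25.4% of all genes. It was the chitinase-like Chil3, also a monocyte marker, with 0 counts in the control. Without APAP sample 1, 2 rose and 1 fell, with more calls over all genes as well, and without sample 3, 1 fell. Arg1 varied widely, at 11.9, 5.68 and 20.7 CPM against 27.0 CPM, and did not pass (adjusted p = 0.18), and Kdm6b, a histone demethylase upstream of Irf4, was at 0.22 (adjusted p = 0.178). Arg1 passed only without APAP sample 3 (-1.60, adjusted p = 0.00419, range 0.00419 to 0.374 without the test against a 2-fold change), and Kdm6b only without APAP sample 1 (adjusted p = 0.0224, range 0.0224 to 0.416 without that test).

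Irf2bp2, a corepressor with zinc finger and RING domains and no interferon regulatory factor fold, was at 210, 237 and 203 CPM in the APAP samples, and at 171 CPM in the control. All APAP samples lay above the control, and the log2 fold change of 0.34 (SE 0.12, 95% interval 0.05 to 0.63) missed the threshold at an adjusted p of 0.0627. It passed in 4 of 13 fits, with the adjusted p ranging from 0.0255 to 0.185 without the test against a 2-fold change. Irf2bp2 shares 20.5% of its exon bases with the antisense gene Gm26759, which had 0, 1 and 0 counts in the APAP samples and 0 in the control. Its paralogs changed in opposite directions. Irf2bpl, at 41.3, 36.8 and 30.7 CPM against 23.0 CPM, rose by 0.66 (SE 0.18, adjusted p = 0.0314, and 0.0875 without APAP sample 2, range 0.00295 to 0.0875 without the test against a 2-fold change), and Irf2bp1, at 32.8, 31.9 and 33.1 CPM against 41.9 CPM, fell by 0.36 (SE 0.09, adjusted p = 0.0263). The Irf2bp1 value was -0.06 once corrected for length and GC content (adjusted p = 0.608, range 0.0184 to 0.608 without the test against a 2-fold change). Irf2bp1 passed in 8 of 13 fits and was not called without APAP sample 2, without sample 3 or with no count filter (adjusted p = 0.0537). Of the 6 genes of this family or tied to it that were tested beside Irf2bp2, 3 rose and 2 fell (median 0.48). Over all genes 25.4% rose and 18.9% fell. Without APAP sample 2 the list had 2 higher and 1 lower, with fewer calls over all genes as well, and without sample 3 it had 1 lower. Of the other genes on this list, the activation factor genes Nfatc1 and Nfatc2 rose by 0.79 (SE 0.13) and 3.48 (SE 0.19). Klf2, a factor of macrophage quiescence, fell from 682 CPM to 160, 211 and 207 CPM (-1.83, SE 0.16).

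**Figure D3:**
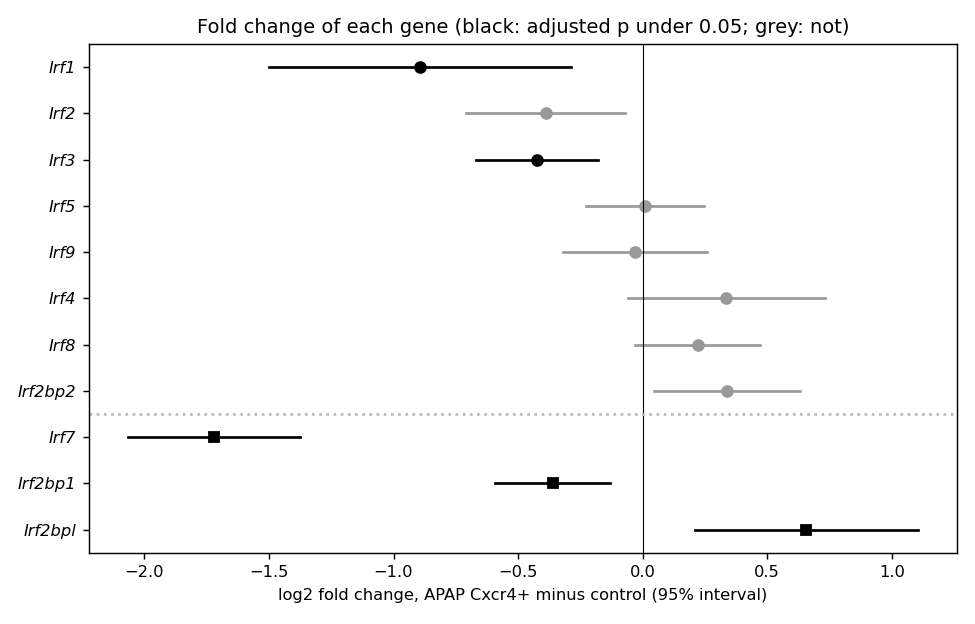
Log2 fold changes with 95% intervals from the edgeR quasi-likelihood fit for the 8 genes (circles, above the dotted line) and for Irf7, Irf2bp1 and Irf2bpl (squares, below it), black where the adjusted p was under 0.05. Irf7 at -1.72 lies outside the range of the 8 genes, -0.89 to 0.34, and among the 8 Irf1 has the widest interval, -1.50 to -0.29.

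Levels were compared between genes per kilobase of exon, counting the bases of all exons of a gene together. This length was 3976 bases for Irf1, 3442 for Irf3, 7055 for Irf8 and 5080 for Irf2bp2. Their longest transcripts had 2137, 2031, 3469 and 5080 bases. The order and shares below hold for the exon length and could differ with transcript length, which was not used for levels. Irf5 was the highest of the 8 in every library, at 127 ± 4.5 CPM per kb (SD, n = 3) in the APAP samples and 126 CPM per kb in the control. In the APAP group it was followed by Irf8 (58.8 ± 2.66), Irf2bp2 (42.7 ± 3.51), Irf1 (33.2 ± 8.27), Irf2 (21.1 ± 2.21), Irf9 (17.6 ± 1.53), Irf3 (16.4 ± 0.94) and Irf4 (3.8 ± 0.41 CPM per kb). The ranges of the neighbours Irf2bp2 and Irf1, Irf2 and Irf9, and Irf9 and Irf3 overlapped. Within libraries, Irf2bp2 was above Irf1 in APAP samples 2 and 3 and below it in sample 1 and the control, Irf2 was above Irf9 in all 4, and Irf9 was above Irf3 in the 3 APAP samples and below it in the control. In the control Irf1 came after Irf5, at 61.6 CPM per kb, ahead of Irf8 at 50.5 and Irf2bp2 at 33.7 CPM per kb. As a share of the summed level of the 8 genes, Irf1 was 13.1%, 8.1% and 9.8% in the APAP samples and 17.99% in the control, while Irf8 was 18.6%, 17.8% and 18.7% against 14.75%. The sum itself was 314 to 327 CPM per kb in the APAP samples and 342 CPM per kb in the control. With Irf7 added, that gene took 20.6% to 24.1% of the total in the APAP samples and 46.6% in the control.

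**Figure D4:**
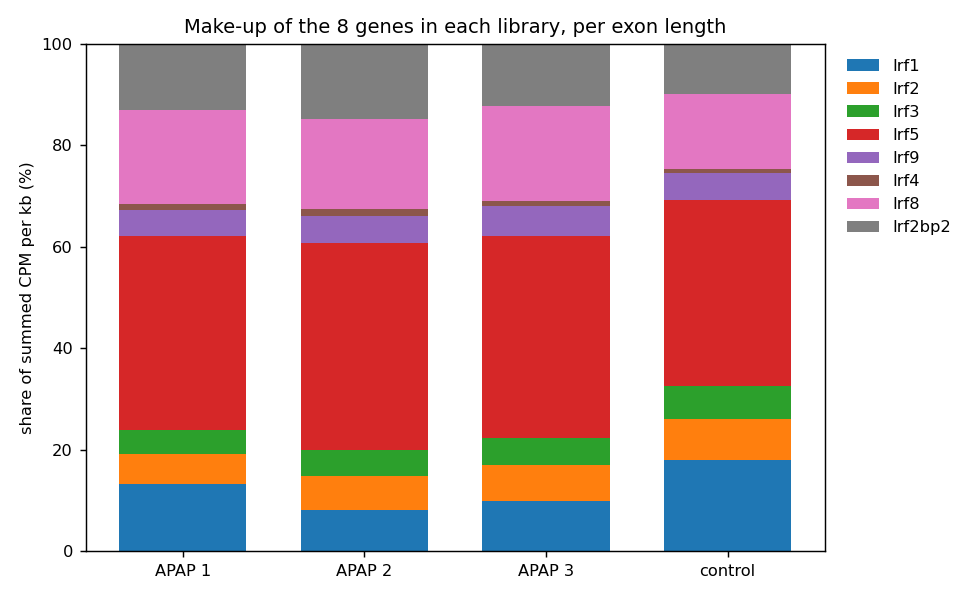
Make-up of the 8 genes in each library as shares of their summed CPM per kb of exon (stacked bars, in percent from 0 to 100). Irf5 takes the largest share in every library, 36.8% to 40.8%, and the Irf1 share is 17.99% in the control and 8.1% to 13.1% in the APAP samples.

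The genes with the most similar pattern were found by the Euclidean distance between log2 CPM values centred on each gene's mean over the 4 libraries, among 8838 genes whose average log2 CPM reached 3. For Irf1, the lowest log2 fold change of the 8, they were Creld2 (distance 0.08), Lsm2 (0.12) and H2-Q10 (0.15). Creld2, an endoplasmic reticulum protein, was at 44.2, 27.4 and 33.4 CPM against 61.4 CPM and so shared the order of the libraries with Irf1. For Irf2bp2, the highest, they were Rab3ip, Slc10a7 and Rubcn (distances 0.04 to 0.05), of which Rubcn, a regulator of autophagy, was at 80.6, 88.2 and 79.0 CPM against 65.5 CPM. Over 4 libraries such likeness is a description only.

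**Figure D5:**
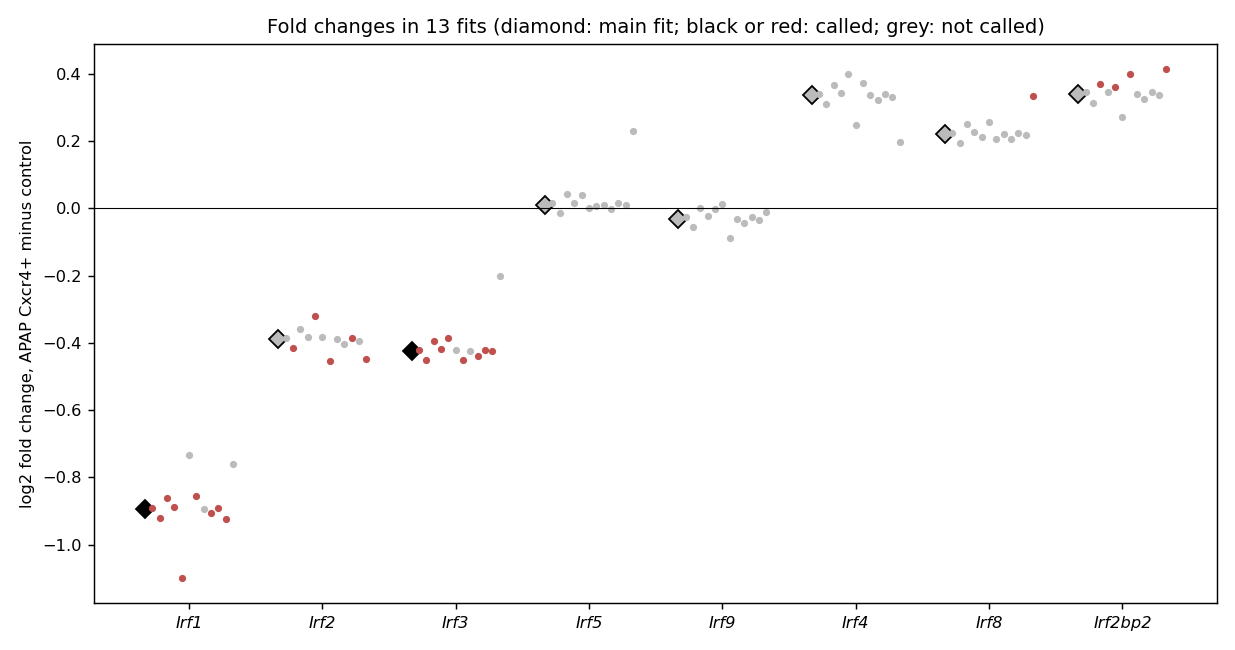
Log2 fold changes of the 8 genes in 13 fits, the main one (diamond) and 12 alternatives (circles), black or red where the adjusted p was under 0.05 and grey where not. Irf1, Irf2 and Irf3 stay below 0 in all 13 and Irf4, Irf8 and Irf2bp2 above 0, and Irf5 and Irf9 lie on both sides of it.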

How the data were processed

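Deposited values are raw read counts per Ensembl gene, as the authors' table gives them. HISAT2, Subread and build mm39 are named per the submitters' processing notes. For tool versions, annotation, strand setting and shared reads, the answer is not given in the sources used here. Symbols came from gene tables of the mouse genome and matched 28926 of 29247 IDs; Rigi and Tasl were looked up under older names. Exon lengths and overlaps came from GENCODE M21 and promoters from RefSeq, both on GRCm38, so no coordinates of the counted genes are used.

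The test was the quasi-likelihood F test of edgeR 4.0.16 (R 4.3.3), after filterByExpr at a minimum count of 10 and a total of 15 had left 18715 genes. It compared 3 APAP libraries with 1 control without covariates, on 2 residual and 3.8 prior degrees of freedom. P-values were Benjamini-Hochberg adjusted over all genes tested and called at 0.05. Depth, 48282283 to 56702837 counts a library, limits members little, since the lowest count of Irf4 was 663. Alternatives were other scalings, filters, tests (DESeq2 1.42.0, limma-voom 3.58.1, glmTreat against a 2-fold change), each APAP sample left out, mitochondrial and ribosomal protein genes left out, and a correction for the trend of fold changes over transcript length and GC content. All 8 genes are named, with up to 4 genes of smallest p per pathway list, others as marked in the text, and the first 2 entries of each cell type list where used. The members and lists were chosen with earlier results of these data known. A few genes that this rule covers are not reported here.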

Additional observations from a re-analysis of the deposited data

How the results depend on the processing

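Over 12 alternatives, Irf1, Irf2 and Irf3 were lower and Irf4, Irf8 and Irf2bp2 higher in every fit. Irf5 changed sign with upper-quartile factors (-0.015) and without mitochondrial and ribosomal protein genes (-0.0028), and Irf9 without a count filter (0.00036), with a range of -0.089 to 0.012 when 1 APAP sample was left out. Nf1 turned to -0.086 after the length and GC correction. The number of the 8 genes called higher was 0 in the main fit, 1 with no count filter, 2 after the length and GC correction (Irf8 and Irf2bp2) and 0 to 1 when 1 APAP sample was left out. The number called lower was 2 in the main fit and 3 with upper-quartile factors. It was 1 after the correction (Irf2), 0 against a 2-fold change and 0 to 3 when 1 library was left out. For comparison, 4909 of 27284 genes were higher with no count filter, and 3717 of 18715 were lower with upper-quartile factors. Over all genes, calls numbered 8295, and 1379 against a 2-fold change (1099 higher, 280 lower), with 3097 higher under the 5 CPM filter, where fewer genes are tested. When 1 APAP sample was left out they numbered 5001 to 9380, with 2979 to 5195 higher and 2022 to 4185 lower. These numbers were lowest without APAP sample 2 and highest without sample 1. Apart from the tests with fewer genes or libraries, the cause was not tested. Fold changes correlated with transcript length across 18644 genes, which are not independent replicates (Spearman's rho 0.253). No paired analysis was possible because the APAP columns carry no replicate number and the control is 1 library. With 1 control library, a deviation of that library cannot be told apart from the group difference.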
